A study of Mus musculus with 21 samples.

Results

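Ion channel genes were taken as all gene symbols of the count files that begin with Kcn (potassium channels), Scn and a digit (sodium channels), Cacna or Cacnb (calcium channels), Trpa, Trpc, Trpm or Trpv and a digit (transient receptor potential, TRP, channels), Ano and a digit (anoctamins), Clcn (chloride channels and exchangers) or Hcn and a digit (pacemaker channels), with Piezo1 and Piezo2. The rule gave 148 of 23204 symbols. It used names and no measured value. Of the 148 genes, 50 had enough counts to be tested and 98 did not, and each of the 98 had at least 1 count in some library. The 148 were 72 potassium channel genes, 12 sodium, 17 calcium, 18 TRP, 2 Piezo, 10 anoctamin, 8 Clcn and 4 Hcn genes, 3 genes for RNAs that code for no channel, and 2 genes named for a channel whose product is not a channel subunit. The symbol Trpa1 was not among those of the count files used here, so it was not analysed.

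The cells were lung fibroblasts of female C57BL/6 mice with a Col1a2-GFP transgene, in which the promoter of a collagen gene drives a green fluorescent protein. Mice had received silica (SiO2) at 400 mg/kg or bleomycin (BLM) at 2 mg/kg, each once by aspiration in saline, or were untreated, and lungs were taken at day 7, 14 or 63 of each model. The series calls the silica model progressive and the bleomycin model reversible. With 3 libraries for each of the 6 treated groups and for the untreated mice, there were 21 libraries. All groups carried the transgene, and all cells were selected by it and by the absence of CD45, CD31, EpCAM, CD146 and Ter119. A saline group was not analysed here. Nothing in the labels ties a library to its own mouse, so p-values measure only the spread between these samples, which may be technical.

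Ion channels are membrane proteins that let selected ions cross a membrane when voltage, a ligand, calcium or mechanical force opens them. Most are built from pore-forming subunits, which carry the current, and from auxiliary subunits, which set how many channels reach the surface and how they open. Potassium channels hold the membrane potential negative, calcium entry through voltage-gated, TRP and Piezo channels feeds contraction, secretion and transcription, and fibroblasts, though not excitable like neurons, carry many of these genes.

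Total counts per library ran from 2080636 to 4477283, and 3 counts in a library stood for 0.670 to 1.44 CPM, the count scaled to library size. The 148 genes took 0.139% to 0.151%, 0.185% to 0.192% and 0.177% to 0.188% of all counts in SiO2 libraries at day 7, 14 and 63, 0.168% to 0.170%, 0.164% to 0.172% and 0.230% to 0.242% in BLM libraries at day 7, 14 and 63, and 0.246% to 0.255% in untreated libraries. Levels below are CPM after scaling by the trimmed mean of M-values (TMM). The tags come from the 3′ ends of transcripts, and levels are compared here between groups for 1 gene, not between genes. The 6 fibroblast markers were all tested and summed to 16430 to 30210 CPM. Ptprc of leukocytes, Epcam of epithelium and Pecam1 and Cdh5 of endothelium averaged under 1 CPM in every group, but other markers of these cells were counted. The 9 epithelial markers, 2 of them tested, summed to 21.2 to 31.01, 7.44 to 10.2 and 3.33 to 5.24 CPM at SiO2 day 7, 14 and 63, 27.8 to 34.4, 6.89 to 8.64 and 6.95 to 10.6 CPM at BLM day 7, 14 and 63 and 7.01 to 13.1 CPM in untreated libraries. Sftpc and Sftpb, both surfactant genes, were called higher at day 7 in both models. The 6 endothelial markers in the files, 2 of them tested, summed to 4.54 to 11, 13.04 to 26.2 and 11.9 to 14.2 CPM at SiO2 day 7, 14 and 63, 10.7 to 18.2, 5.63 to 9.64 and 10.9 to 17.6 CPM at BLM day 7, 14 and 63 and 21.5 to 30.3 CPM in untreated libraries. Tek, an endothelial receptor, was highest in untreated libraries. Kdr, the other tested one, averaged 6.9 CPM at BLM day 7, 6.3 CPM at SiO2 day 14 and 5.2 CPM in untreated libraries. In the remaining groups Kdr averaged less than in untreated libraries. Of 8 pericyte and smooth muscle markers, 5 were tested, and their sum was 337 to 451 CPM in SiO2 day 7 libraries, 72.7 to 86.8 CPM at day 14 and 108 to 114 CPM at day 63. The same sum was 111 to 261, 254 to 412 and 55.1 to 68.7 CPM in BLM libraries at day 7, 14 and 63 and 33.1 to 42.6 CPM in untreated libraries, and it came mostly from Actg2 and Des, while Rgs5, Mcam and Cnn1 averaged at most 1.10 CPM in any group. Of 6 mesothelial markers 5 were tested, and their sum came mostly from Upk1b.

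Promoter sequence is shown for 4 of the genes with a window in RefSeq's table, Kcna2 and Scn7a, which fell in several groups, and Kcnn4 and Kcnj2, which rose in several, so that each can be read beside its values. Each line gives the 250 bases before RefSeq's transcript start in GRCm38.p6, 5′ to 3′ on the gene's strand. Capitals mark a match on either strand to 1 of 4 motifs: AP-1 (TGANTCA), TEAD (GGAATG), a GC box (GGGCGG) or a TATA box (TATAAA), which do not overlap each other in these windows.
Kcna2 (chr3:107101317-107101566, plus strand): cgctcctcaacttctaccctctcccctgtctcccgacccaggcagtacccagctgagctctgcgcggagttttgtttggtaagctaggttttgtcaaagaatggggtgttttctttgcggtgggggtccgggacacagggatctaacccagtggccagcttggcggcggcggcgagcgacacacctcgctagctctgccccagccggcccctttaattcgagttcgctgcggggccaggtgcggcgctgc
Scn7a (chr2:66784911-66785160, minus strand): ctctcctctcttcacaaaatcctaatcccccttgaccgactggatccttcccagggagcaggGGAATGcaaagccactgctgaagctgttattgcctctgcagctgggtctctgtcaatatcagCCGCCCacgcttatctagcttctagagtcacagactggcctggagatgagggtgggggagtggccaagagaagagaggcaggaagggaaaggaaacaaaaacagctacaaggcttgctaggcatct
Kcnn4 (chr7:24370013-24370262, plus strand): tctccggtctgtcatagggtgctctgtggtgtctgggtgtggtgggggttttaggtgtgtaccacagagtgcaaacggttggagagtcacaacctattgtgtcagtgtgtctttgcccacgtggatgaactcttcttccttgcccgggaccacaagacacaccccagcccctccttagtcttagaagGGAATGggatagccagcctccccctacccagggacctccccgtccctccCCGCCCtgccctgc
Kcnj2 (chr11:111065914-111066163, plus strand): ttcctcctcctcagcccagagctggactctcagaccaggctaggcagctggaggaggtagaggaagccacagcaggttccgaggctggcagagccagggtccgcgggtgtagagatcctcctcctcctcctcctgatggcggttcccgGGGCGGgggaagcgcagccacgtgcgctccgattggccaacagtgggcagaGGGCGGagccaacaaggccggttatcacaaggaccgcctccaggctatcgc
The Kcna2 window held none of the 4 motifs. It lies inside the coordinates given further below for Kcna2, which come from GENCODE vM21. The Scn7a and Kcnn4 windows each held a TEAD motif and a GC box, and the Kcnj2 window held 2 GC boxes. RefSeq's table held 158 windows for 115 of the 148 genes, and of these 2.53% had an AP-1 motif, 13.9% a TEAD motif, 40.5% a GC box and 6.33% a TATA box, against 6.75%, 12.6%, 32.7% and 12.4% of all 32851 windows of the same length.

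Against untreated fibroblasts, more ion channel genes fell than rose at day 7 of both models and at BLM day 14. At SiO2 day 14 and at day 63 of both models the counts were near each other, with slightly more lower than higher. Rose and fell mark an adjusted p under 0.05 in edgeR's quasi-likelihood test with Benjamini-Hochberg adjustment over all 11669 tested genes. Fold changes are log2 values ± SE with n = 3 libraries per group. Where a call is said to be lost without several libraries, each was left out alone, and the adjusted p values follow in the order named. At SiO2 day 7, 10 of the 50 tested genes rose and 21 fell, where 23.4% of all tested genes rose, 20.6% fell and 44.1% passed in all. SiO2 day 14 had 6 higher and 8 lower (13.6% and 10.5% of all genes, 24.1% in all). SiO2 day 63 had 10 higher and 11 lower (15.3% and 12.5%, 27.8% in all). BLM day 7 had 5 higher and 17 lower (16.7% and 14.9%, 31.6% in all), BLM day 14 had 7 higher and 18 lower (20.7% and 18.5%, 39.3% in all), and BLM day 63 had 5 higher and 7 lower (6.02% and 5.48%, 11.5% in all). Leaving out 1 library moved the day 63 split. At SiO2 day 63, 9 were higher and 8 lower without untreated replicate 2 or SiO2 day 63 replicate 3, 11 and 8 without SiO2 day 63 replicate 2, and 8 and 8 without untreated replicate 1. At BLM day 63, 5 were higher and 4 lower without BLM day 63 replicate 2, 6 and 4 without replicate 3, 6 and 6 without replicate 1, and 5 and 5 without untreated replicate 1 or with DESeq2's Wald test. As shares of the 50, the genes that rose made up 20.0%, 12.0% and 20.0% at SiO2 day 7, 14 and 63 and 10.0%, 14.0% and 10.0% at BLM day 7, 14 and 63. The genes that fell made up 42.0%, 16.0% and 22.0% in SiO2 groups and 34.0%, 36.0% and 14.0% in BLM groups at the same days. The 50 genes had a median log2 fold change of -0.72, -0.14 and -0.15 at SiO2 day 7, 14 and 63 and of -0.44, -0.50 and -0.04 at BLM day 7, 14 and 63, where the median of all tested genes lay between 0.01 and 0.04. The 6 comparisons share the 3 untreated libraries, so their counts are not independent of each other. In these bulk samples fewer cells of a type and less RNA per cell cannot be told apart.

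Over the 6 comparisons, 13 genes rose in at least 1 and fell in none, 25 fell in at least 1 and rose in none, Cacna2d1 did both, and 11 passed in none. Piezo2 was among the genes that rose in all 6. Kcna2, Cacna1c, Cacna1d, Scn2a1 and Scn3a fell in all 6. The 11 without a call were Piezo1, Trpm7, Trpm4, Trpc1, Scn2b, Kcne4, Kcnk6, Clcn2, Clcn4-2, Clcn6 and Clcn7.

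**Figure D1:**
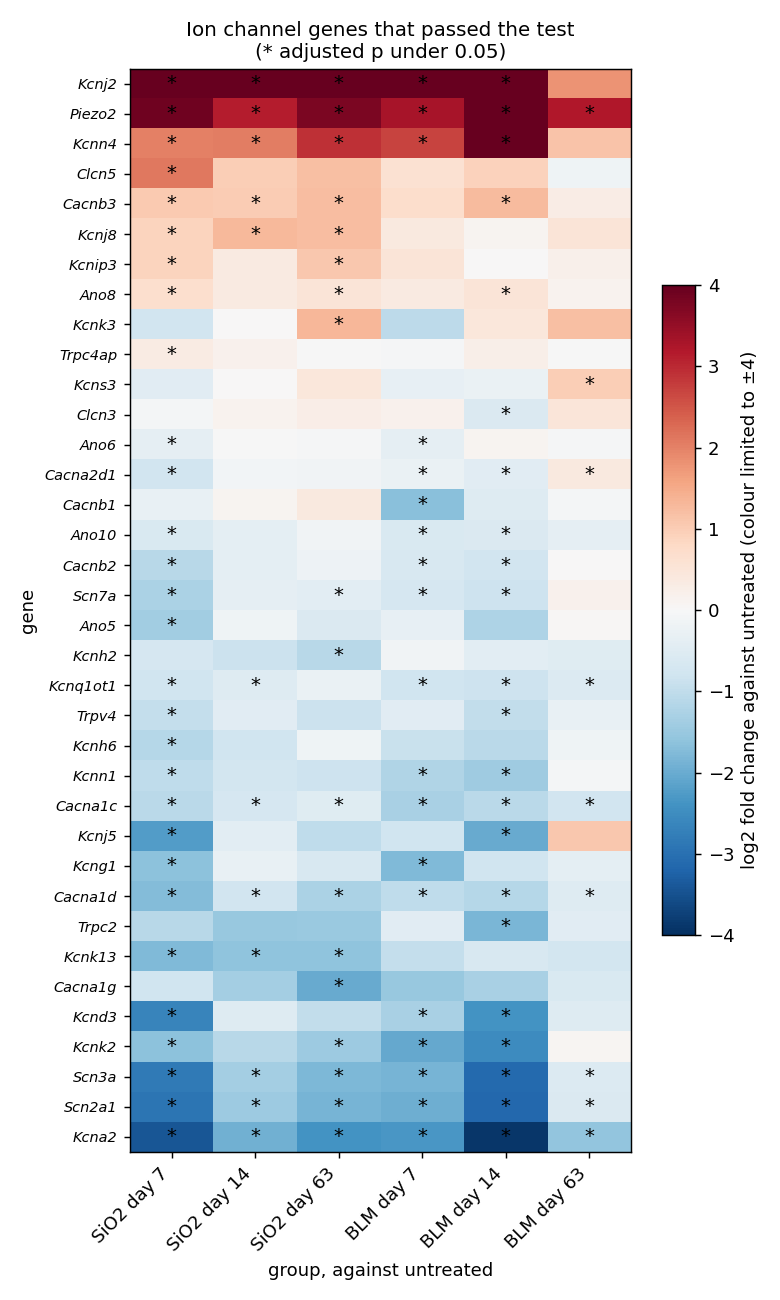
Log2 fold change against untreated (colour, limited to ±4) of 36 of the 39 ion channel genes that passed edgeR's test in at least 1 of 6 comparisons, with columns for SiO2 and BLM groups and a star for an adjusted p under 0.05. Piezo2 carries a star in all 6 columns in red, and so do Kcna2 and Scn3a in blue. The Scn3a value at BLM day 63 is -0.54.

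Piezo channels are large trimers that open when the membrane is stretched. Piezo2, known from touch and position sensing in sensory neurons, rose in every treated group, while Piezo1, the more widely expressed member, did not pass the test against untreated in any. Piezo2 (chr18:63010213-63387183, minus strand, mm10) had 103, 88.5 and 83.3 CPM at day 7, 55.99, 74.7 and 34.2 CPM at day 14 and 72.04, 92.1 and 86.8 CPM at day 63 in SiO2 libraries. BLM libraries had 36.2, 76.6 and 67.6 CPM at day 7, 136, 158 and 158 CPM at day 14 and 38.5, 64.3 and 65.6 CPM at day 63. Untreated libraries had 4.65, 6.76 and 7.46 CPM. All 18 treated libraries lay above all 3 untreated ones, and BLM day 14 was the highest group. The log2 fold change was 3.90 ± 0.30 at SiO2 day 7 (edgeR adjusted p = 4.66e-12), 3.15 ± 0.31 at SiO2 day 14 (adjusted p = 3.84e-09) and 3.76 ± 0.30 at SiO2 day 63 (adjusted p = 2.99e-11). In BLM it was 3.29 ± 0.31, 4.61 ± 0.29 and 3.19 ± 0.31 at day 7, 14 and 63 (adjusted p = 1.17e-09, 1.17e-13 and 2.47e-08), and the level at BLM day 14 was 24.5-fold higher than in untreated libraries. The summed pericyte and smooth muscle markers were 254 to 412 CPM at BLM day 14, where Piezo2 was highest, and 55.1 to 68.7 CPM at BLM day 63, where Piezo2 was still above untreated. The sum was highest at SiO2 day 7, with 337 to 451 CPM, where Piezo2 was lower than at BLM day 14. It was 72.7 to 86.8 and 108 to 114 CPM at SiO2 day 14 and 63 and 111 to 261 CPM at BLM day 7. The sum came mostly from Actg2 and Des. Cspg4 averaged 8.41, 1.96 and 4.42 CPM in SiO2 groups at day 7, 14 and 63. It averaged 7.90, 13.9 and 2.03 CPM in BLM groups and 1.65 CPM in untreated libraries. For Notch3 the means were 10.55, 5.17 and 11.4 CPM, 4.50, 8.12 and 2.17 CPM and 1.125 CPM in the same order. For Myh11 they were 4.92, 2.785 and 3.91 CPM, 3.105, 1.82 and 3.93 CPM and 2.66 CPM. The part of other cell types in the Piezo2 result was not tested.

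Piezo1 (chr8:122481698-122551329, minus strand) averaged 246 ± 34.04 CPM, 232 ± 17.6 CPM and 229 ± 0.991 CPM at SiO2 day 7, 14 and 63, 254 ± 17.7 CPM, 255 ± 5.46 CPM and 206 ± 9.36 CPM at BLM day 7, 14 and 63 and 244 ± 24.6 CPM in untreated libraries (SD, n = 3 each). Over the 21 libraries it ran from 195 to 285 CPM, and all groups but BLM day 63 overlapped the untreated one. Its log2 fold changes against untreated lay between -0.25 ± 0.10 (BLM day 63, edgeR adjusted p = 0.126) and 0.06 ± 0.10 (BLM day 14, adjusted p = 0.692). An exon of Piezo1 overlaps one of Ctu2 on the other strand, and the strand setting of the counting is not given in the sources used here, so the reads of the pair cannot be told apart.

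**Figure D2:**
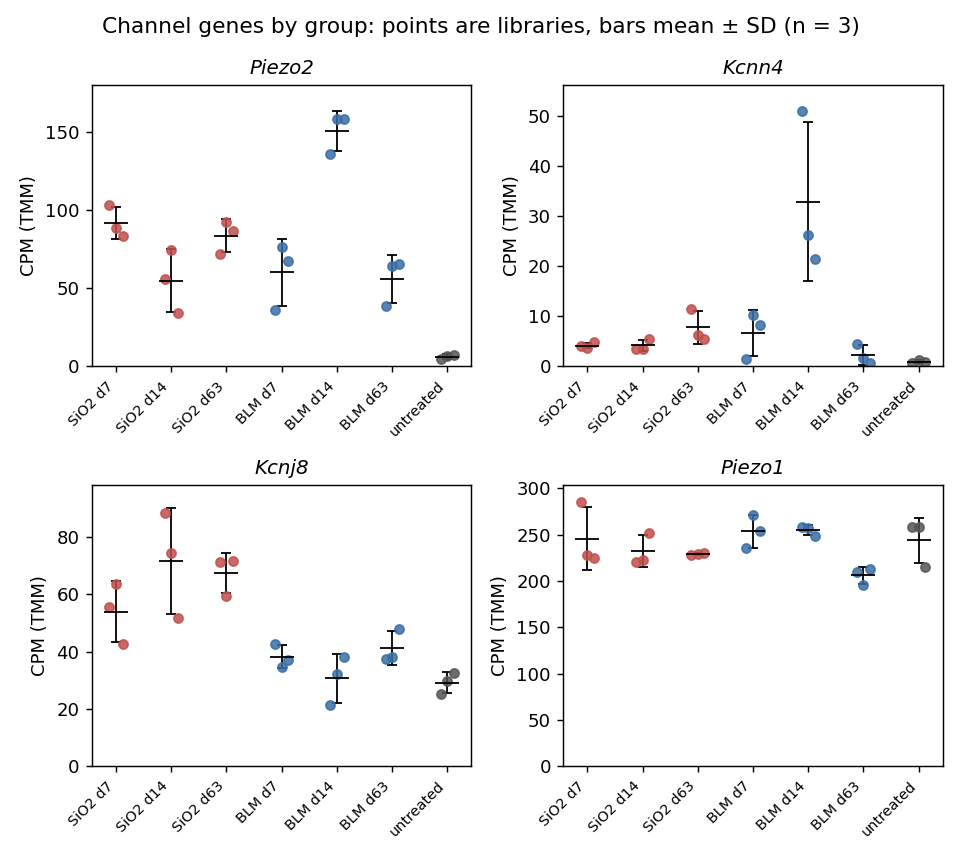
CPM (linear axis from 0) of Piezo2, Kcnn4, Kcnj8 and Piezo1 in SiO2, BLM and untreated groups, with 1 point per library and bars for mean ± SD (n = 3). Piezo2 lies between 34.2 and 158 CPM in treated libraries and below 7.5 CPM in untreated ones, and Piezo1 keeps within 195 to 285 CPM in all.

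Among sodium channel genes the pore-forming Scn2a1 and Scn3a fell in all 6 treated groups and Scn7a in 4 of them, and the auxiliary beta subunit Scn2b passed in no comparison. Of 12 sodium channel genes 5 were tested. Scn3a (chr2:65457118-65567627, minus strand) and Scn2a1 (chr2:65620771-65767447, plus strand, Scn2a in GENCODE vM21) code for voltage-gated channels best known from neurons and are neighbours on chromosome 2, 53143 bases apart. Scn3a had 53.8, 50.6 and 34.3 CPM at day 7, 102, 95.1 and 179 CPM at day 14 and 103, 85.2 and 92.96 CPM at day 63 in SiO2 libraries. BLM libraries had 104, 76.3 and 86.6 CPM at day 7, 28.2, 47.7 and 35.8 CPM at day 14 and 255, 196 and 217 CPM at day 63. Untreated libraries had 381, 308 and 284 CPM. Every treated library was below every untreated one, and the BLM day 14 and SiO2 day 7 groups were lowest. Scn2a1 had 28.8, 30.4 and 20.7 CPM at day 7, 57.8, 54.5 and 104 CPM at day 14 and 58.9, 53.9 and 53.5 CPM at day 63 in SiO2 libraries. In BLM libraries it had 63.1, 38.7 and 52.8 CPM at day 7, 16.6, 29.2 and 21.8 CPM at day 14 and 156, 109.5 and 131 CPM at day 63, and in untreated ones 228, 185 and 186 CPM. The order of the groups was the same as for Scn3a.

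Scn3a was 7.03-fold lower at SiO2 day 7 and 8.68-fold lower at BLM day 14 than in untreated libraries (log2 fold change -2.81 ± 0.20 and -3.12 ± 0.21, edgeR adjusted p = 9.65e-13 and 2.9e-13). Scn2a1 was 7.51-fold lower and 8.81-fold lower in the same groups (-2.91 ± 0.21 and -3.14 ± 0.22, adjusted p = 1.3e-12 and 7.92e-13). Both also fell at SiO2 day 14 (-1.37 ± 0.18 for Scn3a and -1.47 ± 0.19 for Scn2a1, adjusted p = 1.13e-06 and 6.35e-07) and at BLM day 7 (-1.87 ± 0.19 and -1.96 ± 0.20, adjusted p = 4.73e-09 and 4.24e-09). At SiO2 day 63 both were still lower, with -1.79 ± 0.19 for Scn3a and -1.85 ± 0.19 for Scn2a1 (adjusted p = 7.74e-09 and 7.99e-09). At BLM day 63 the log2 fold changes were -0.54 ± 0.18 for Scn3a and -0.59 ± 0.18 for Scn2a1 (adjusted p = 0.0432 and 0.0312). The Scn3a call at BLM day 63 was lost with DESeq2's Wald test, and without untreated replicates 1 and 2 and BLM day 63 replicates 2 and 3 (adjusted p = 0.128, 0.222, 0.0729, 0.181 and 0.126). The Scn2a1 call there was lost with DESeq2's Wald test, and without untreated replicate 1 and BLM day 63 replicates 2 and 3 (adjusted p = 0.0974, 0.158, 0.167 and 0.0942). The ratio of Scn2a1 to Scn3a counts lay between 0.507 and 0.656 in all 21 libraries, with a median of 0.600. The longest transcripts of the pair share 879 of the 8876 words of 25 bases in Scn2a (9.90%), and 0 of 941 in the last 1000 bases. Where the reads of the pair fall was not examined. Mesothelial markers summed to 125 to 179, 394 to 514 and 222 to 253 CPM at SiO2 day 7, 14 and 63, to 268 to 374, 384 to 439 and 353 to 429 CPM at BLM day 7, 14 and 63 and to 513 to 638 CPM in untreated libraries. Upk1b, which made up most of this sum, averaged 105, 301 and 194 CPM at SiO2 day 7, 14 and 63, 189.8, 320.0 and 349.8 CPM at BLM day 7, 14 and 63 and 466 CPM in untreated libraries. Msln, another of these markers, averaged 11.7, 38.8 and 14.1 CPM at SiO2 day 7, 14 and 63. It averaged 35.01, 24.4 and 7.81 CPM at BLM day 7, 14 and 63 and 20.99 CPM in untreated libraries. Krt19 averaged 28.2, 78.4 and 24.9 CPM at SiO2 day 7, 14 and 63. Its means were 82.3, 48.4 and 32.9 CPM at BLM day 7, 14 and 63 and 79.6 CPM in untreated libraries. Of the 5 tested markers, 0 were higher and 5 lower at SiO2 day 7, 1 and 1 at SiO2 day 14, 0 and 3 at SiO2 day 63, 1 and 1 at BLM day 7, 0 and 2 at BLM day 14 and 0 and 4 at BLM day 63. Their part in the sodium channel results was not tested. Markers of neurons and glia summed to 157 to 275, 225 to 412 and 37.7 to 47.2 CPM at BLM day 7, 14 and 63 and to 30.97 to 34.99 CPM in untreated libraries. SiO2 libraries had sums of 139 to 184, 60.1 to 69.04 and 74.05 to 95.9 CPM at day 7, 14 and 63. These sums came mostly from Uchl1, Tubb3 and Ncam1, while Cdh19 averaged at most 0.583 CPM and Syt1 at most 0.304 CPM in any group. Of the 12 markers, 7 were in the files and 4 were tested. Their part was likewise not tested.

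Scn7a (chr2:66673425-66784914, minus strand) codes for an atypical sodium channel that responds to extracellular sodium. It had 26.2, 27.3 and 18.2 CPM at day 7, 43.2, 45.2 and 44.6 CPM at day 14 and 42.96, 37.7 and 45.5 CPM at day 63 in SiO2 libraries. BLM libraries had 37.9, 33.96 and 35.7 CPM at day 7, 29.2, 28.01 and 39.1 CPM at day 14 and 65.2, 69.5 and 58.95 CPM at day 63. Untreated libraries had 58.1, 56.6 and 55.99 CPM. SiO2 libraries stayed below untreated ones at all 3 days, whereas BLM day 63 lay above. Against untreated it fell at SiO2 day 7 (-1.25 ± 0.15, edgeR adjusted p = 2.9e-08), BLM day 7 (-0.67 ± 0.14, adjusted p = 0.000498) and BLM day 14 (-0.82 ± 0.14, adjusted p = 3.21e-05). At SiO2 day 63 it had a log2 fold change of -0.44 ± 0.14 (adjusted p = 0.0173). The Scn7a call at SiO2 day 63 was lost without SiO2 day 63 replicate 2 (adjusted p = 0.0912).

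**Figure D3:**
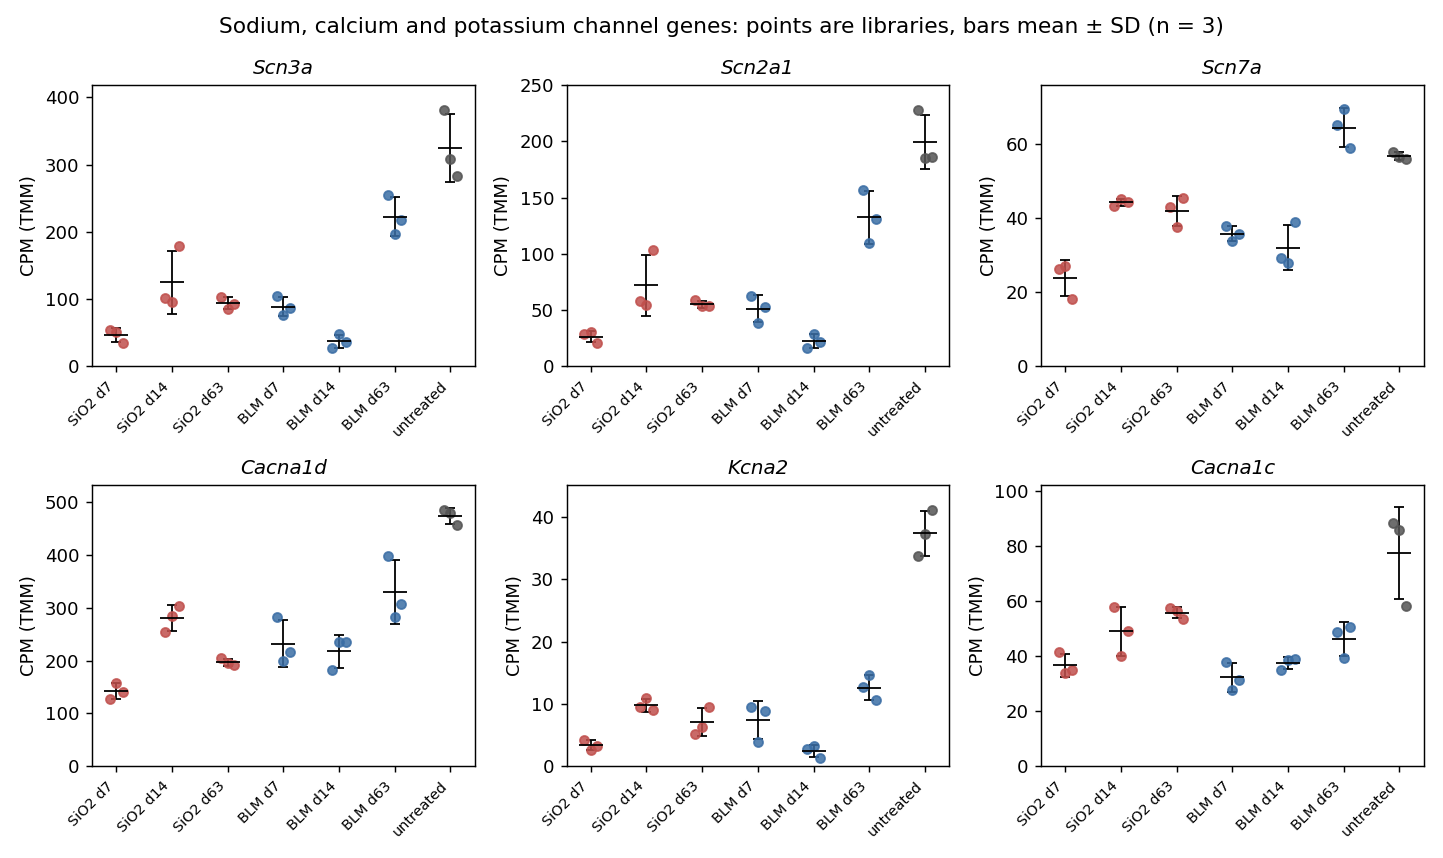
CPM (linear axis from 0) of Scn3a, Scn2a1, Scn7a, Cacna1d, Kcna2 and Cacna1c in SiO2, BLM and untreated groups, with 1 point per library and bars for mean ± SD (n = 3). Scn3a is at 85.2 to 103 CPM at SiO2 day 63, 196 to 255 CPM at BLM day 63 and 284 to 381 CPM in untreated libraries.

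Voltage-gated calcium channels have a pore subunit (Cacna1 genes) with an alpha2delta subunit (Cacna2d genes), which brings it to the surface, and an intracellular beta subunit (Cacnb genes). Of 17 such genes 7 were tested. Both tested L-type pore genes, Cacna1d and Cacna1c, fell in every treated group. Cacna1d (chr14:30039939-30491455, minus strand) had 128, 158 and 141 CPM at day 7, 254, 284 and 303 CPM at day 14 and 205, 195 and 192 CPM at day 63 in SiO2 libraries. BLM libraries had 282, 198 and 217 CPM at day 7, 182, 234 and 236 CPM at day 14 and 397, 282 and 308 CPM at day 63. Untreated libraries had 485, 480.1 and 457 CPM. No treated library reached the untreated range, and SiO2 day 7 was the lowest group. It fell, with a log2 fold change of -1.74 ± 0.13, -0.76 ± 0.13 and -1.27 ± 0.13 at SiO2 day 7, 14 and 63 (edgeR adjusted p = 4.58e-12, 3.75e-05 and 5.52e-09). In BLM its log2 fold change was -1.03 ± 0.13 and -1.13 ± 0.13 at BLM day 7 and 14 (adjusted p = 2.38e-07 and 2.89e-08). At BLM day 63 its log2 fold change was -0.53 ± 0.13 (adjusted p = 0.00531). The Cacna1d call at BLM day 63 was lost without BLM day 63 replicate 2 (adjusted p = 0.0554). An exon of Cacna1d overlaps one of Chdh on the other strand, so reads of the pair cannot be told apart.

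Cacna1c (chr6:118587240-119196418, minus strand), the L-type channel of heart and smooth muscle, had 41.5, 33.9 and 34.8 CPM at day 7, 57.8, 40.1 and 49.2 CPM at day 14 and 57.6, 56.5 and 53.5 CPM at day 63 in SiO2 libraries. BLM libraries had 37.9, 27.6 and 31.3 CPM at day 7, 34.9, 38.4 and 38.9 CPM at day 14 and 48.9, 39.2 and 50.5 CPM at day 63. Untreated libraries had 88.3, 85.9 and 58.3 CPM. Untreated replicate 3 was near the SiO2 day 63 libraries and the other two untreated libraries well above. It fell, with a log2 fold change of -1.09 ± 0.15 and -0.68 ± 0.15 at SiO2 day 7 and 14 (edgeR adjusted p = 7.55e-07 and 0.00101). In BLM its log2 fold change was -1.28 ± 0.16, -1.07 ± 0.16 and -0.76 ± 0.15 at BLM day 7, 14 and 63 (adjusted p = 1.65e-07, 1.89e-06 and 0.000763). At SiO2 day 63 it had a log2 fold change of -0.49 ± 0.15 (adjusted p = 0.012). The Cacna1c call at SiO2 day 63 was lost without untreated replicates 1 and 2 (adjusted p = 0.0831 and 0.0739).

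Cacna2d1 (chr5:15934691-16374511, plus strand), the alpha2delta subunit that gabapentin binds, had 205, 209.7 and 164 CPM at day 7, 300.4, 306 and 309 CPM at day 14 and 313, 301 and 281 CPM at day 63 in SiO2 libraries. BLM libraries had 286, 249 and 280.2 CPM at day 7, 242, 228 and 252 CPM at day 14 and 404, 449 and 450.3 CPM at day 63. Untreated libraries had 326, 303 and 360.2 CPM. SiO2 day 7 was lowest and BLM day 63 was above all untreated libraries. It fell at SiO2 day 7 (-0.77 ± 0.10, edgeR adjusted p = 2.78e-07) and BLM day 14 (-0.45 ± 0.10, adjusted p = 0.000635). At BLM day 63 it was higher by 0.40 ± 0.10 (adjusted p = 0.00753). The Cacna2d1 call at BLM day 63 was lost without untreated replicate 2 (adjusted p = 0.0544). At BLM day 7 it had a log2 fold change of -0.28 ± 0.10 (adjusted p = 0.0354). The Cacna2d1 call at BLM day 7 was lost with no filter on low counts and only the groups compared, and without untreated replicates 1 and 3 and BLM day 7 replicates 2 and 3 (adjusted p = 0.159, 0.0641, 0.0663, 0.15, 0.167 and 0.0559).

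Of the beta subunits, Cacnb2 fell and Cacnb3 rose. Cacnb2 (chr2:14603088-14987908, plus strand) had 11.5, 9.004 and 6.06 CPM at day 7, 18.4, 13.8 and 11.9 CPM at day 14 and 18.9, 15.4 and 15.5 CPM at day 63 in SiO2 libraries. BLM libraries had 13.02, 9.21 and 14.8 CPM at day 7, 9.51, 11.3 and 12.4 CPM at day 14 and 20.6, 18.6 and 18.8 CPM at day 63. Untreated libraries had 17.3, 18.5 and 22.4 CPM. The day 63 groups of both models overlapped the untreated range, and SiO2 day 7 and BLM day 7 and 14 lay below it. Cacnb2 fell at SiO2 day 7 (-1.11 ± 0.22, edgeR adjusted p = 0.000133) and BLM day 14 (-0.78 ± 0.22, adjusted p = 0.00528), and at BLM day 7 it had a log2 fold change of -0.64 ± 0.22 (adjusted p = 0.0222). The Cacnb2 call at BLM day 7 was lost without untreated replicate 3 and BLM day 7 replicate 2 (adjusted p = 0.0775 and 0.154). Cacnb3, at most 7.99 CPM in any library, rose at SiO2 day 63 (1.24 ± 0.35, adjusted p = 0.00719) and BLM day 14 (1.27 ± 0.36, adjusted p = 0.00489). At SiO2 day 7 and 14 Cacnb3 was higher by 1.05 ± 0.35 and 1.03 ± 0.36 (adjusted p = 0.0162 and 0.0343). The first of these calls was lost without untreated replicate 2 and SiO2 day 7 replicate 1 (adjusted p = 0.0691 and 0.108). The second was lost with upper quartile scaling and DESeq2's Wald test, and without untreated replicates 1 and 2 and SiO2 day 14 replicates 1 and 2 (adjusted p = 0.0526, 0.0721, 0.0976, 0.121, 0.0544 and 0.119).

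Potassium channel genes were the largest family, with 72 genes and 18 tested. Against untreated, 4 rose and 9 fell at SiO2 day 7, 3 and 3 at SiO2 day 14 and 5 and 5 at SiO2 day 63. In BLM 2 rose and 6 fell at day 7, 2 and 6 at day 14 and 1 and 2 at day 63. Of all tested genes, 44.1%, 24.1% and 27.8% passed at SiO2 day 7, 14 and 63 and 31.6%, 39.3% and 11.5% at BLM day 7, 14 and 63. Kcna2, a voltage-gated pore gene for a delayed rectifier that opens at low voltage, fell in all 6 groups. Kcna2 (chr3:107101146-107115005, plus strand), whose promoter window held none of the 4 motifs, had 4.25, 2.65 and 3.28 CPM at day 7, 9.48, 10.9 and 8.96 CPM at day 14 and 5.24, 6.37 and 9.54 CPM at day 63 in SiO2 libraries. BLM libraries had 9.55, 3.95 and 8.85 CPM at day 7, 2.82, 3.28 and 1.38 CPM at day 14 and 12.7, 14.6 and 10.6 CPM at day 63. Untreated libraries had 33.8, 37.3 and 41.1 CPM. Every treated library was below every untreated one, and BLM day 14 was the lowest group. Its log2 fold change was -3.44 ± 0.27, -1.92 ± 0.23 and -2.38 ± 0.24 at SiO2 day 7, 14 and 63 (edgeR adjusted p = 8.44e-12, 1.84e-07 and 3.74e-09). In BLM it was -2.33 ± 0.24, -3.91 ± 0.30 and -1.56 ± 0.22 at BLM day 7, 14 and 63 (adjusted p = 8.47e-09, 6.13e-12 and 1.21e-05), a 14.99-fold lower level at BLM day 14.

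Kcns3 (chr12:11090202-11151056, minus strand), a silent voltage-gated subunit that carries no current by itself, passed against untreated only at BLM day 63. Kcns3 had 7.75, 11.4 and 12.4 CPM at day 7, 16.6, 14.6 and 12.6 CPM at day 14 and 17.8, 20.4 and 20.6 CPM at day 63 in SiO2 libraries. BLM libraries had 14.5, 9.74 and 10.1 CPM at day 7, 10.2, 13.1 and 12.1 CPM at day 14 and 24.3, 27.4 and 33.7 CPM at day 63. Untreated libraries had 13.7, 13.3 and 16.8 CPM. BLM day 63 stood above all other groups, and Kcns3 rose there by 0.99 ± 0.19 (edgeR adjusted p = 0.000511).

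Other voltage-gated and two-pore genes were low in counts. Kcnd3, which carries fast-inactivating current, fell, with a log2 fold change of -2.64 ± 0.52 at SiO2 day 7 (edgeR adjusted p = 0.000121, and -3.31 without SiO2 day 7 replicate 2) and of -2.39 ± 0.53 at BLM day 14 (adjusted p = 0.000505). An exon of Kcnd3 overlaps Kcnd3os on the other strand. Kcnk13, a two-pore background channel, fell at all 3 days of SiO2, with -1.77 ± 0.45, -1.62 ± 0.45 and -1.61 ± 0.44 (adjusted p = 0.00188, 0.0075 and 0.00573), and the last was -2.25 without SiO2 day 63 replicate 2. In BLM it passed at no day, with -0.96 ± 0.42, -0.63 ± 0.41 and -0.73 ± 0.40 (adjusted p = 0.0793, 0.229 and 0.264), and the test of SiO2 against BLM passed at no day (adjusted p = 0.366, 0.173 and 0.233 at day 7, 14 and 63). Kcnk2, a two-pore channel opened by stretch and lipids, fell at BLM day 14, with -2.51 ± 0.55 (adjusted p = 0.000465), and -1.87 without BLM day 14 replicate 3.

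The potassium channel genes with the largest rises against untreated were Kcnn4 and Kcnj2. Kcnn4 (chr7:24370263-24386690, plus strand), the intermediate-conductance calcium-activated channel of lymphocytes, red cells and fibroblasts, had 4.001, 3.71 and 4.79 CPM at day 7, 3.56, 3.45 and 5.57 CPM at day 14 and 11.5, 6.37 and 5.55 CPM at day 63 in SiO2 libraries. BLM libraries had 1.45, 10.3 and 8.21 CPM at day 7, 51.1, 26.2 and 21.5 CPM at day 14 and 4.46, 1.72 and 0.665 CPM at day 63. Untreated libraries had 0.774, 1.25 and 0.933 CPM. BLM day 14 stood above all other libraries, with replicate 1 about as high as the other two together, and BLM day 63 overlapped the untreated range. Lymphocyte markers, 5 of 8 in the files and 2 tested, summed to 30.01 to 72.4, 25.2 to 35.9 and 34.8 to 46.1 CPM at SiO2 day 7, 14 and 63, 32.9 to 54.7, 9.37 to 15.8 and 3.99 to 6.20 CPM at BLM day 7, 14 and 63 and 4.90 to 10.7 CPM in untreated libraries, mostly from Ccl5. Myeloid markers, 7 of 8 in the files and 1 tested, summed to 9.08 to 13.5, 17.9 to 32.3 and 19.1 to 23.6 CPM at SiO2 day 7, 14 and 63, 14.5 to 23.1, 9.64 to 14.6 and 2.66 to 5.71 CPM at BLM day 7, 14 and 63 and 3.10 to 6.51 CPM in untreated libraries, mostly from Tyrobp. The part of either in the Kcnn4 result was not tested. Kcnn4 rose by 4.98 ± 0.54 at BLM day 14 (edgeR adjusted p = 8.64e-09) and by 2.91 ± 0.64 at SiO2 day 63 (adjusted p = 0.000682). At BLM day 7 it was higher by 2.70 ± 0.66 (adjusted p = 0.00198). The Kcnn4 call at BLM day 7 was lost with limma-voom (adjusted p = 0.0603). At SiO2 day 7 it was higher by 2.03 ± 0.71 (adjusted p = 0.0205). The Kcnn4 call at SiO2 day 7 was lost with limma-voom, and without untreated replicate 1 and SiO2 day 7 replicate 3 (adjusted p = 0.0847, 0.0827 and 0.0559). At SiO2 day 14 it was higher by 2.05 ± 0.71 (adjusted p = 0.0335). The Kcnn4 call at SiO2 day 14 was lost with limma-voom, and without untreated replicates 1, 2 and 3 and SiO2 day 14 replicate 3 (adjusted p = 0.128, 0.129, 0.071, 0.0698 and 0.119). Its relative Kcnn1, a small-conductance channel, did not pass at SiO2 day 14 or at day 63 of either model. Kcnn1 was lower with log2 fold changes of -1.03 ± 0.36, -1.20 ± 0.37 and -1.41 ± 0.39 at SiO2 day 7, BLM day 7 and BLM day 14 (adjusted p = 0.0193, 0.013 and 0.00405). Those calls were lost, in the same order, without untreated replicate 1 and SiO2 day 7 replicate 3 (adjusted p = 0.147 and 0.119), without untreated replicate 1 and BLM day 7 replicate 1 (adjusted p = 0.112 and 0.0684), and without BLM day 14 replicate 3 (adjusted p = 0.0507).

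Kcnj8 (chr6:142564837-142571614, minus strand), the pore of the ATP-sensitive channel of vascular smooth muscle and pericytes, passed the test against untreated at all 3 days of SiO2 and at none of BLM. It had 55.5, 63.8 and 42.6 CPM at day 7, 88.6, 74.7 and 51.8 CPM at day 14 and 71.2, 59.5 and 71.7 CPM at day 63 in SiO2 libraries. BLM libraries had 42.8, 34.8 and 37.3 CPM at day 7, 21.5, 32.2 and 38.3 CPM at day 14 and 37.5, 38.03 and 48.1 CPM at day 63. Untreated libraries had 25.3, 29.8 and 32.7 CPM. SiO2 libraries and those of BLM day 7 and 63 all lay above the untreated ones. Kcnj8 rose by 0.90 ± 0.19, 1.30 ± 0.19 and 1.22 ± 0.19 at SiO2 day 7, 14 and 63 (edgeR adjusted p = 0.000306, 4.63e-06 and 7.93e-06), and in BLM its values were 0.40 ± 0.20, 0.10 ± 0.20 and 0.51 ± 0.20 (adjusted p = 0.127, 0.743 and 0.0884). Tested directly, SiO2 was higher than BLM by 1.20 ± 0.19 at day 14 and 0.71 ± 0.18 at day 63 (adjusted p = 1.65e-05 and 0.0053), and not at day 7 (0.50 ± 0.18, adjusted p = 0.0867). Abcc9 is not one of the 148 genes. This sulfonylurea receptor, which partners Kcnj8, rose at SiO2 day 14 and 63 (1.03 ± 0.14 and 0.97 ± 0.14, adjusted p = 1.7e-06 and 2.74e-06) and at BLM day 63 (0.92 ± 0.14, adjusted p = 3.92e-05), and was lower at BLM day 7 and 14 (-0.41 ± 0.15 and -0.40 ± 0.15, adjusted p = 0.0348 and 0.0368). The summed pericyte and smooth muscle markers were 337 to 451, 72.7 to 86.8 and 108 to 114 CPM at SiO2 day 7, 14 and 63, and their part in the Kcnj8 result was not tested.

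Kcnj2, the classical inward rectifier that sets the resting potential, had 0 counts in the 3 untreated libraries, so its folds are lower bounds against 3 counts over the untreated group. It had 77, 11 and 20 counts over the 3 SiO2 libraries at day 7, 14 and 63, which made it at least 21.9-fold, 3.26-fold and 5.52-fold higher. BLM libraries had 9, 10 and 1 counts at day 7, 14 and 63, and the first 2 made it at least 2.88-fold and 3.40-fold higher. It passed edgeR's test at SiO2 day 7, 14 and 63 (adjusted p = 2.86e-08, 0.00458 and 0.000304) and at BLM day 7 and 14 (adjusted p = 0.00588 and 0.00253). SiO2 day 7 had 4.50, 7.42 and 7.82 CPM, and no library of another group reached 2 CPM. Kcnj5, an inward rectifier opened by G proteins, fell, with a log2 fold change of -2.24 ± 0.61 at SiO2 day 7 (adjusted p = 0.00326, and -3.01 without SiO2 day 7 replicate 3) and of -2.00 ± 0.62 at BLM day 14 (adjusted p = 0.00995, and -2.78 without BLM day 14 replicate 2).

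Among the accessory potassium subunits, 2 of 13 were tested. Kcnip3 (chr2:127456498-127522094, minus strand), a calcium-binding partner of Kcnd channels that also binds DNA, had 16.5, 12.2 and 12.4 CPM at day 7, 7.11, 10.4 and 10.9 CPM at day 14 and 15.98, 13.8 and 16.6 CPM at day 63 in SiO2 libraries. BLM libraries had 11.6, 8.43 and 12.01 CPM at day 7, 5.99, 8.04 and 7.99 CPM at day 14 and 6.70, 11.4 and 7.54 CPM at day 63. Untreated libraries had 8.26, 5.76 and 8.40 CPM. SiO2 day 7 and 63 and BLM day 7 lay above the untreated libraries and the other groups overlapped them. Kcnip3 rose by 0.90 ± 0.24 at SiO2 day 7 and 1.07 ± 0.24 at SiO2 day 63 (edgeR adjusted p = 0.00326 and 0.000834). Kcne4 passed in no comparison.

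TRP channels answer to stretch, lipids, temperature and receptor signals. Of 18 TRP genes 5 were tested, and 1 fell at SiO2 day 7 and 2 at BLM day 14, where 20.6% and 18.5% of all tested genes fell. Trpm7 (chr2:126791565-126876230, minus strand), a channel fused to a kinase that passes magnesium and calcium, had 19.2, 16.1 and 16.4 CPM at day 7, 20.1, 17.8 and 19.1 CPM at day 14 and 15.2, 21.5 and 20.4 CPM at day 63 in SiO2 libraries. BLM libraries had 16.2, 13.9 and 19.9 CPM at day 7, 20.4, 15.8 and 18.7 CPM at day 14 and 15.9, 21.2 and 14.8 CPM at day 63. Untreated libraries had 19.1, 17.3 and 16.3 CPM. All groups overlapped, and its log2 fold changes against untreated ran from -0.09 ± 0.19 at BLM day 7 to 0.11 ± 0.18 at SiO2 day 63 (edgeR adjusted p = 0.747 and 0.715). Trpv4 (chr5:114622152-114658421, minus strand), a mechanosensitive calcium channel, had 3.50, 2.91 and 2.78 CPM at day 7, 3.85, 3.45 and 5.81 CPM at day 14 and 3.41, 2.39 and 3.99 CPM at day 63 in SiO2 libraries. BLM libraries had 4.92, 4.21 and 4.11 CPM at day 7, 3.52, 1.79 and 3.86 CPM at day 14 and 4.46, 7.43 and 3.10 CPM at day 63. Untreated libraries had 4.65, 8.26 and 4.67 CPM. SiO2 day 7 and 63 and BLM day 14 lay below the untreated libraries, of which replicate 2 was highest. At SiO2 day 7 it had a log2 fold change of -0.96 ± 0.36 (adjusted p = 0.0296). The Trpv4 call at SiO2 day 7 was lost with DESeq2's Wald test, and without untreated replicate 2 and SiO2 day 7 replicates 2 and 3 (adjusted p = 0.0522, 0.272, 0.0718 and 0.084). At BLM day 14 it had a log2 fold change of -0.97 ± 0.37 (adjusted p = 0.0381). The Trpv4 call at BLM day 14 was lost with no filter on low counts and DESeq2's Wald test, and without untreated replicate 2 and BLM day 14 replicates 1 and 2 (adjusted p = 0.0623, 0.0653, 0.292, 0.051 and 0.179). Trpc6, a receptor-operated calcium channel, was too low to test, with 5, 5 and 2 counts over the 3 libraries of SiO2 day 7, 14 and 63, 2, 9 and 7 over those of BLM day 7, 14 and 63 and 9 over the untreated ones.

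Anoctamins are channels activated by calcium or scramblases, which move lipids between membrane leaflets, and 4 of 10 were tested. Ano6 (chr15:95790843-95974751, plus strand), a lipid scramblase, had 62.3, 51.4 and 55.3 CPM at day 7, 71.4, 73.3 and 70.2 CPM at day 14 and 67.8, 60.8 and 78.5 CPM at day 63 in SiO2 libraries. BLM libraries had 44.5, 62.9 and 62.6 CPM at day 7, 77.1, 82.2 and 73.02 CPM at day 14 and 74.7, 68.05 and 64.9 CPM at day 63. Untreated libraries had 68.4, 74.8 and 72.8 CPM. SiO2 day 7 and BLM day 7 lay below the untreated libraries. It had a log2 fold change of -0.35 ± 0.13 at SiO2 day 7 (edgeR adjusted p = 0.0243). The Ano6 call at SiO2 day 7 was lost with no filter on low counts, and without untreated replicate 2 and SiO2 day 7 replicates 2 and 3 (adjusted p = 0.0562, 0.0829, 0.106 and 0.0642). At BLM day 7 it had a log2 fold change of -0.34 ± 0.13 (adjusted p = 0.0392). The Ano6 call at BLM day 7 was lost with no filter on low counts and only the groups compared, and without untreated replicates 1, 2 and 3 and BLM day 7 replicate 1 (adjusted p = 0.125, 0.0806, 0.0524, 0.135, 0.0754 and 0.286).

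Ano10 (chr9:122175874-122294423, minus strand) had 7.75, 9.27 and 8.33 CPM at day 7, 9.48, 10.6 and 9.21 CPM at day 14 and 13.4, 10.1 and 11.8 CPM at day 63 in SiO2 libraries. BLM libraries had 7.52, 8.69 and 9.16 CPM at day 7, 7.04, 10.7 and 7.99 CPM at day 14 and 10.9, 10.3 and 9.31 CPM at day 63. Untreated libraries had 13.4, 12.3 and 13.1 CPM. The untreated libraries lay above all but SiO2 day 63 replicate 1. It had a log2 fold change of -0.61 ± 0.20, -0.61 ± 0.21 and -0.58 ± 0.21 at SiO2 day 7, BLM day 7 and BLM day 14 (edgeR adjusted p = 0.0153, 0.0239 and 0.0272). The SiO2 day 7 call was lost with no filter on low counts, and without SiO2 day 7 replicate 1 (adjusted p = 0.0759 and 0.0509). The BLM day 7 call was lost with no filter on low counts, DESeq2's Wald test and only the groups compared, and without untreated replicate 1 and BLM day 7 replicates 1 and 2 (adjusted p = 0.131, 0.0621, 0.0528, 0.0751, 0.0916 and 0.0529). The BLM day 14 call was lost with no filter on low counts, DESeq2's Wald test and only the groups compared, and without untreated replicate 1 and BLM day 14 replicates 1 and 3 (adjusted p = 0.13, 0.0638, 0.0542, 0.0724, 0.104 and 0.09).

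Ano8 (chr8:71476019-71485963, minus strand), which ties the endoplasmic reticulum to the plasma membrane, had 21, 20.4 and 20.9 CPM at day 7, 16.6, 14.1 and 20.4 CPM at day 14 and 15.5, 16.2 and 24.2 CPM at day 63 in SiO2 libraries. BLM libraries had 15.6, 17.9 and 17.1 CPM at day 7, 18.7, 21.1 and 16.5 CPM at day 14 and 14.6, 13.4 and 15.5 CPM at day 63. Untreated libraries had 11.9, 14.8 and 12.6 CPM. SiO2 day 7 and 63 and BLM day 7 and 14 lay above the untreated libraries. It rose at SiO2 day 7, by 0.66 ± 0.19 (edgeR adjusted p = 0.00505). At BLM day 14 it was higher by 0.51 ± 0.19 (adjusted p = 0.0367). The Ano8 call at BLM day 14 was lost with upper quartile scaling, no filter on low counts, DESeq2's Wald test and only the groups compared, and without untreated replicates 1 and 3 and BLM day 14 replicates 1 and 2 (adjusted p = 0.0734, 0.0711, 0.0838, 0.0538, 0.152, 0.0826, 0.0765 and 0.151). At SiO2 day 63 it was higher by 0.51 ± 0.19 (adjusted p = 0.043). The Ano8 call at SiO2 day 63 was lost with DESeq2 size factors, upper quartile scaling, no filter on low counts, DESeq2's Wald test, limma-voom, only the groups compared and the replicate block, and without untreated replicates 1 and 3 and SiO2 day 63 replicate 3 (adjusted p = 0.0567, 0.0898, 0.0784, 0.104, 0.0617, 0.0703, 0.0557, 0.177, 0.0958 and 0.366). An exon of Ano8 overlaps one of Dda1 on the other strand. Ano1, the classical calcium-activated chloride channel of airway and gut, was too low to test and had 6, 10 and 4 counts over the 3 libraries of SiO2 day 7, 14 and 63, 15, 6 and 8 over those of BLM day 7, 14 and 63 and 30 over the untreated ones, 18 of them in replicate 2.

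Clcn genes code for chloride channels of the surface and for chloride-proton exchangers of endosomes and lysosomes, and 6 of 8 were tested. Clcn5, an endosomal exchanger, rose at SiO2 day 7 by 2.11 ± 0.46 (edgeR adjusted p = 0.000348). Clcn3 (chr8:60910389-60983300, minus strand), another exchanger of endosomes, had 13.2, 11.7 and 13.4 CPM at day 7, 18.1, 16.5 and 10.9 CPM at day 14 and 13.1, 20.7 and 15.1 CPM at day 63 in SiO2 libraries. BLM libraries had 13.9, 16.6 and 15.2 CPM at day 7, 8.10, 8.64 and 10.5 CPM at day 14 and 20.6, 18.6 and 17.7 CPM at day 63. Untreated libraries had 14.4, 14.02 and 11.7 CPM. BLM day 14 was lowest and BLM day 63 lay above the untreated libraries. At BLM day 14 it had a log2 fold change of -0.57 ± 0.22 (adjusted p = 0.0413). The Clcn3 call at BLM day 14 was lost with no filter on low counts, DESeq2's Wald test, limma-voom and the replicate block, and without untreated replicates 1 and 2 and BLM day 14 replicates 1 and 2 (adjusted p = 0.103, 0.0623, 0.0537, 0.0519, 0.115, 0.101, 0.113 and 0.101).

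Of the symbols that do not stand for a channel subunit, Trpc4ap (chr2:155634271-155692384, minus strand), an adaptor of a ubiquitin ligase, had 194, 211 and 226 CPM at day 7, 204, 174 and 186 CPM at day 14 and 164, 159 and 179 CPM at day 63 in SiO2 libraries. BLM libraries had 141, 196 and 152 CPM at day 7, 213, 200.5 and 186 CPM at day 14 and 178, 154 and 170.0 CPM at day 63. Untreated libraries had 166, 172 and 166 CPM. SiO2 day 7 and 14 and BLM day 14 lay above the untreated libraries. At SiO2 day 7 it was higher by 0.32 ± 0.11 (edgeR adjusted p = 0.0174). The Trpc4ap call at SiO2 day 7 was lost with upper quartile scaling, and without untreated replicates 1 and 3 and SiO2 day 7 replicate 3 (adjusted p = 0.0713, 0.0603, 0.053 and 0.084). Its exons overlap Myh7b on the other strand. Kcnq1ot1 (chr7:143203458-143296549, minus strand), an imprinted noncoding RNA antisense to the channel gene Kcnq1, had 20.5, 17.5 and 22.7 CPM at day 7, 25.2, 23.1 and 26.6 CPM at day 14 and 25.7, 29.5 and 33.3 CPM at day 63 in SiO2 libraries. BLM libraries had 22.3, 17.1 and 22.4 CPM at day 7, 19.4, 18.8 and 21.8 CPM at day 14 and 19.1, 28.9 and 24.8 CPM at day 63. Untreated libraries had 32.5, 37.8 and 35.9 CPM. All treated libraries but SiO2 day 63 replicate 3 lay below the untreated ones. It fell, with a log2 fold change of -0.80 ± 0.16, -0.79 ± 0.16 and -0.82 ± 0.17 at SiO2 day 7, BLM day 7 and BLM day 14 (adjusted p = 0.000145, 0.000404 and 0.000176). At SiO2 day 14 it had a log2 fold change of -0.50 ± 0.16 (adjusted p = 0.0196). The Kcnq1ot1 call at SiO2 day 14 was lost with no filter on low counts, and without untreated replicate 2 and SiO2 day 14 replicate 2 (adjusted p = 0.0501, 0.0853 and 0.0847). At BLM day 63 it had a log2 fold change of -0.55 ± 0.16 (adjusted p = 0.0207). The Kcnq1ot1 call at BLM day 63 was lost without untreated replicate 2 and BLM day 63 replicates 1 and 3 (adjusted p = 0.0984, 0.131 and 0.0558). Without the strand setting, its reads and those of Kcnq1 cannot be told apart.

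The 98 genes that were not tested had at most 139 counts each over the 21 libraries, and the 50 tested genes held 98.7% of the counts of all 148. Kcnma1, the large-conductance calcium-activated channel of smooth muscle, was among the untested ones, with 10, 16 and 28 counts over the 3 libraries of SiO2 day 7, 14 and 63, 1, 8 and 2 over those of BLM day 7, 14 and 63 and 8 over the untreated ones. Whether such counts differ was not tested at this depth. Of the genes with values here, exons of Kcnk2, Kcnk3, Kcnn1, Kcnma1, Cacnb1, Cacnb2 and Ano6 also overlap genes with Rik or Gm symbols on the other strand, whose reads cannot be told apart from theirs.

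The other calls against untreated were of tested genes with low counts, and their values below are log2 fold changes. The voltage-gated potassium genes Kcng1, a silent subunit, and Kcnh6 had -1.65 ± 0.58 and -1.14 ± 0.44 at SiO2 day 7 (edgeR adjusted p = 0.0208 and 0.0347). The Kcng1 call was lost without SiO2 day 7 replicate 1 (adjusted p = 0.0626). The Kcnh6 call was lost with no filter on low counts and DESeq2's Wald test, and without untreated replicates 2 and 3 and SiO2 day 7 replicates 1 and 3 (adjusted p = 0.0862, 0.0697, 0.0624, 0.0827, 0.0721 and 0.138). Kcng1 also had -1.77 ± 0.60 at BLM day 7 (adjusted p = 0.0244, and -2.71 without BLM day 7 replicate 1). The Kcng1 call at BLM day 7 was lost without untreated replicate 2 and BLM day 7 replicates 2 and 3 (adjusted p = 0.0569, 0.0758 and 0.114). Kcnh2, the channel that ends the heart's action potential, had -1.12 ± 0.41 at SiO2 day 63 (adjusted p = 0.041). The Kcnh2 call at SiO2 day 63 was lost with DESeq2's Wald test and limma-voom, and without untreated replicates 1 and 2 and SiO2 day 63 replicates 1, 2 and 3 (adjusted p = 0.06, 0.0673, 0.159, 0.172, 0.0644, 0.0997 and 0.104). Kcnk3, an acid-sensitive two-pore channel, had 1.31 ± 0.41 there (adjusted p = 0.0149). The Kcnk3 call at SiO2 day 63 was lost without untreated replicates 1 and 2 and SiO2 day 63 replicate 3 (adjusted p = 0.0505, 0.113 and 0.0556). Cacna1g, a T-type calcium pore, had -2.02 ± 0.70 there (adjusted p = 0.0284). The Cacna1g call at SiO2 day 63 was lost without untreated replicates 1 and 2 and SiO2 day 63 replicates 2 and 3 (adjusted p = 0.112, 0.0602, 0.121 and 0.0645). Cacnb1, a beta subunit of skeletal muscle channels, had -1.67 ± 0.61 at BLM day 7 (adjusted p = 0.0359, and -2.73 without BLM day 7 replicate 2). The Cacnb1 call at BLM day 7 was lost with no filter on low counts, DESeq2's Wald test and only the groups compared, and without untreated replicates 1 and 3 and BLM day 7 replicates 1 and 3 (adjusted p = 0.0714, 0.0626, 0.0823, 0.159, 0.0621, 0.168 and 0.0828). Ano5 had -1.39 ± 0.50 at SiO2 day 7 (adjusted p = 0.0233). The Ano5 call at SiO2 day 7 was lost without untreated replicate 2 and SiO2 day 7 replicate 3 (adjusted p = 0.112 and 0.147). Trpc2, whose exons lie with those of Xndc1 on the same strand, had -1.84 ± 0.67 at BLM day 14 (adjusted p = 0.0281). The Trpc2 call at BLM day 14 was lost without untreated replicates 2 and 3 and BLM day 14 replicates 1 and 2 (adjusted p = 0.0516, 0.0614, 0.0913 and 0.0762). Kcnk2 had -1.63 ± 0.47, -1.45 ± 0.46 and -2.04 ± 0.51 at SiO2 day 7, SiO2 day 63 and BLM day 7 (adjusted p = 0.00522, 0.016 and 0.0023). The SiO2 day 7 call was lost without untreated replicate 2 (adjusted p = 0.107). The SiO2 day 63 call was lost without untreated replicate 2 and SiO2 day 63 replicates 2 and 3 (adjusted p = 0.225, 0.0645 and 0.0724). The BLM day 7 call was lost without untreated replicate 2 (adjusted p = 0.053). Kcnd3 had -1.28 ± 0.45 at BLM day 7 (adjusted p = 0.0284). The Kcnd3 call at BLM day 7 was lost with limma-voom, and without untreated replicate 1 and BLM day 7 replicate 3 (adjusted p = 0.0519, 0.282 and 0.119).

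Set against each other at the same day, the models differed in 11 to 16 of the 50 genes, and several genes, among them Scn3a, Scn2a1, Kcna2, Scn7a, Cacna1d and Cacna2d1, were lower in SiO2 at day 7, higher at day 14 and lower at day 63. At day 7, 3 of the 50 genes were higher and 8 lower in SiO2 than in BLM, where 5.29% of all genes were higher, 5.10% lower and 10.4% either. At day 14, 10 were higher and 4 lower (9.06% and 8.03% of all genes, 17.1% either), and at day 63, 5 were higher and 11 lower (9.13% and 6.44%, 15.6% either). Scn3a was lower in SiO2 with -0.94 ± 0.20 at day 7 (edgeR adjusted p = 0.00155), higher by 1.75 ± 0.21 at day 14 (adjusted p = 1.81e-07) and lower with -1.25 ± 0.19 at day 63 (adjusted p = 8.47e-06). Scn2a1 had -0.95 ± 0.22, 1.67 ± 0.22 and -1.26 ± 0.19 (adjusted p = 0.00337, 1.37e-06 and 1.32e-05) at the same days. Kcna2 had -1.10 ± 0.33, 1.98 ± 0.34 and -0.81 ± 0.26 at day 7, 14 and 63 (adjusted p = 0.0248, 7.21e-05 and 0.0296). The Kcna2 call at day 7 was lost with limma-voom and only the groups compared, and without BLM day 7 replicates 1 and 3 and SiO2 day 7 replicates 2 and 3 (adjusted p = 0.079, 0.0714, 0.158, 0.105, 0.109 and 0.0807). The Kcna2 call at day 63 was lost without BLM day 63 replicates 1 and 2 and SiO2 day 63 replicates 1 and 2 (adjusted p = 0.0726, 0.119, 0.149 and 0.106). Scn7a had -0.58 ± 0.15, 0.46 ± 0.15 and -0.61 ± 0.14 at day 7, 14 and 63 (adjusted p = 0.00912, 0.0264 and 0.00144). The Scn7a call at day 7 was lost without SiO2 day 7 replicate 3 (adjusted p = 0.106). The Scn7a call at day 14 was lost with only the groups compared, and without BLM day 14 replicates 1 and 2 and SiO2 day 14 replicates 2 and 3 (adjusted p = 0.0543, 0.112, 0.138, 0.0648 and 0.0671). Cacna1d had -0.70 ± 0.13, 0.37 ± 0.13 and -0.74 ± 0.13 at day 7, 14 and 63 (adjusted p = 0.000334, 0.0473 and 8.91e-05). The Cacna1d call at day 14 was lost with DESeq2 size factors, upper quartile scaling, DESeq2's Wald test and the replicate block, and without BLM day 14 replicates 1 and 2 and SiO2 day 14 replicates 2 and 3 (adjusted p = 0.053, 0.0536, 0.0545, 0.06, 0.258, 0.0513, 0.0988 and 0.179). Cacna2d1 had -0.49 ± 0.10, 0.34 ± 0.10 and -0.54 ± 0.10 at day 7, 14 and 63 (adjusted p = 0.00113, 0.018 and 0.000202). The Cacna2d1 call at day 14 was lost without BLM day 14 replicate 2 and SiO2 day 14 replicate 3 (adjusted p = 0.0771 and 0.051). For Scn3a and Scn2a1 the 3 calls held without each library and in the other settings. Piezo2 and Kcnn4 were lower in SiO2 than in BLM at day 14, with -1.46 ± 0.21 and -2.93 ± 0.41 (adjusted p = 6.99e-06 and 2.72e-06). At day 63 Piezo2 did not pass (0.58 ± 0.21, adjusted p = 0.0686), and Kcnn4 was higher in SiO2 by 1.77 ± 0.51 (adjusted p = 0.0164). The Kcnn4 call for SiO2 against BLM at day 63 was lost without BLM day 63 replicates 2 and 3 and SiO2 day 63 replicate 1 (adjusted p = 0.0624, 0.125 and 0.118). Its value was 2.74 without BLM day 63 replicate 1. Kcnj2 was higher in SiO2 at day 7 by 2.88 ± 0.46 (adjusted p = 6.11e-05).

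From day 14 to day 63, 20 of the 50 channel genes passed the test in BLM and 3 in SiO2. In BLM, 15 of the 50 genes were higher and 5 lower at day 63 than at day 14, where 15.4% of all genes were higher, 16.9% lower and 32.3% either. In SiO2, 1 was higher and 2 lower, where 1.53% and 2.00% of all genes were (3.52% either). The difference between the models in this change, tested as an interaction (the SiO2 change minus the BLM change), passed for 16 genes, 4 above 0 and 12 below, where 9.70% of all genes were above, 8.81% below and 18.5% either. The medians of the 50 genes and of all tested genes were 0.42 and -0.01 in BLM and -0.02 and 0.00 in SiO2. Several pore genes that had fallen at BLM day 14 were higher again at BLM day 63, among them Scn3a by 2.57 ± 0.20 (edgeR adjusted p = 3.06e-11), Scn2a1 by 2.55 ± 0.22 (adjusted p = 1.32e-10), Kcna2 by 2.34 ± 0.33 (adjusted p = 1.43e-06) and Cacna1d by 0.60 ± 0.13 (adjusted p = 0.000526). The pore genes Cacna1c, Trpv4 and Trpc2, also lower than untreated at BLM day 14, did not pass, with 0.31 ± 0.16, 0.67 ± 0.37 and 1.39 ± 0.68 (adjusted p = 0.143, 0.176 and 0.122). In SiO2 Scn3a, Scn2a1, Kcna2 and Cacna1d had log2 changes of -0.42 ± 0.19, -0.38 ± 0.20, -0.45 ± 0.27 and -0.51 ± 0.13 in that order (adjusted p = 0.255, 0.347, 0.436 and 0.0219). The interaction was -3.00 ± 0.28 for Scn3a, -2.93 ± 0.29 for Scn2a1, -2.79 ± 0.43 for Kcna2 and -1.11 ± 0.18 for Cacna1d (adjusted p = 2.3e-09, 1.13e-08, 1.39e-05 and 3.54e-05). Of these 4 genes Cacna1d also passed within SiO2, and that call was lost without SiO2 day 14 replicates 2 and 3 and SiO2 day 63 replicates 2 and 3 (adjusted p = 0.0558, 0.104, 0.0881 and 0.0795).

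Some genes that had risen at BLM day 14 were lower again at BLM day 63, while Ano8, which had also risen, did not pass. Piezo2 fell, with a log2 fold change of -1.43 ± 0.21 from day 14 to day 63 in BLM (edgeR adjusted p = 4.04e-06) and Kcnn4 likewise, with -3.83 ± 0.45 (adjusted p = 6.44e-08, and -4.81 without BLM day 63 replicate 1), while in SiO2 their changes were 0.61 ± 0.22 and 0.86 ± 0.46 (adjusted p = 0.124 and 0.371). Piezo2 stayed higher than in untreated libraries at BLM day 63, by 3.19 ± 0.31, and Kcnn4 did not pass there (1.15 ± 0.79, adjusted p = 0.408). Cacna2d1, Scn7a, Kcns3 and Clcn3 were higher at BLM day 63 than at day 14 by 0.85 ± 0.10, 1.00 ± 0.14, 1.26 ± 0.19 and 1.05 ± 0.21 (adjusted p = 9.68e-08, 1.72e-06, 5.72e-06 and 0.000206). Piezo1 was lower at BLM day 63 than at day 14, with -0.30 ± 0.10 (adjusted p = 0.0223). The Piezo1 call for BLM day 63 against day 14 was lost with upper quartile scaling and no filter on low counts, and without BLM day 14 replicates 1 and 2 and BLM day 63 replicate 2 (adjusted p = 0.0583, 0.0546, 0.07, 0.0564 and 0.0866). Beside these changes, the summed pericyte and smooth muscle markers were 55.1 to 68.7 CPM at BLM day 63 and 254 to 412 CPM at BLM day 14, and proliferation genes were at 7.69 to 13.4 CPM and 76.9 to 169 CPM. Their part in the channel changes was not tested.

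**Figure D4:**
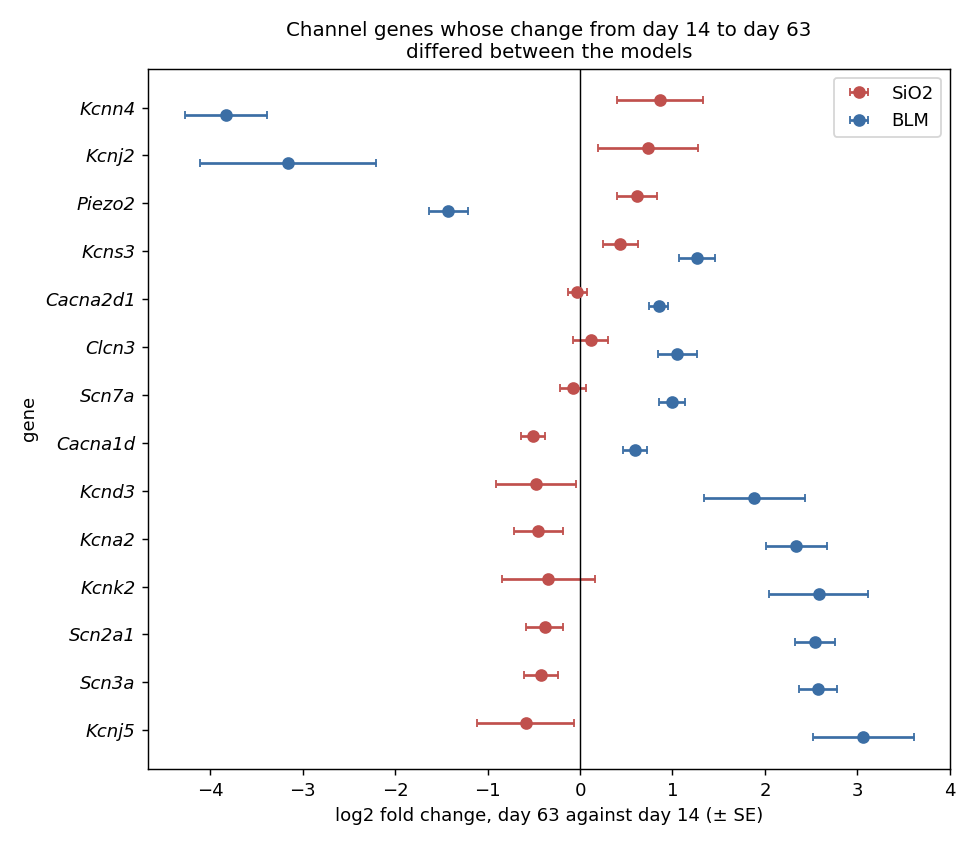
Log2 fold change of day 63 against day 14 (± SE) in SiO2 and in BLM for 14 of the 16 ion channel genes whose change differed between the models in edgeR's interaction test. Scn3a lies at -0.42 in SiO2 and 2.57 in BLM, and Kcnn4 and Piezo2 lie above 0 in SiO2 and below 0 in BLM.

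Channel genes outside the symbol rule were counted from a list of 123 genes, of which 103 were in the files and 54 were tested. Of these, 10 rose and 19 fell at SiO2 day 7, 10 and 9 at SiO2 day 14 and 11 and 12 at SiO2 day 63. In BLM, 9 rose and 13 fell at day 7, 10 and 17 at day 14 and 6 and 6 at day 63. Of all tested genes, 23.4%, 13.6% and 15.3% rose and 20.6%, 10.5% and 12.5% fell at SiO2 day 7, 14 and 63, and 16.7%, 20.7% and 6.02% rose and 14.9%, 18.5% and 5.48% fell at BLM day 7, 14 and 63. Gria1, a pore subunit of the AMPA glutamate receptor, was among the lowest, with -3.62 ± 0.42, -1.48 ± 0.33 and -2.58 ± 0.37 at SiO2 day 7, 14 and 63 and -2.28 ± 0.37, -4.16 ± 0.47 and -1.43 ± 0.33 at BLM day 7, 14 and 63 (edgeR adjusted p between 2.54e-08 and 0.00326). Stim1, the calcium sensor of the endoplasmic reticulum that opens store-operated channels, fell in all 6 groups, with -1.51 ± 0.12, -0.70 ± 0.11 and -1.05 ± 0.11 in SiO2 and -0.86 ± 0.11, -1.08 ± 0.12 and -0.38 ± 0.11 in BLM at day 7, 14 and 63 (adjusted p between 6.95e-12 and 0.0252). P2rx4, an ATP-gated cation channel, rose in all 6, by 0.88 ± 0.11, 0.96 ± 0.11 and 1.51 ± 0.11 in SiO2 and 0.40 ± 0.11, 0.49 ± 0.11 and 0.52 ± 0.11 in BLM (adjusted p between 3.31e-12 and 0.00447).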

How the data were processed

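Fibroblasts positive for Col1a2-GFP were profiled by 3′SAGE-seq in 21 libraries. Per the labels' protocols, RNA was captured by its poly(A) tail and amplified before sequencing. The authors deposited raw counts of reads per gene symbol, and per the submitters' processing notes reads were aligned with Bowtie2 2.2.5 to mm10. The annotation, the counting tool and its strand setting are not given in the sources used here. Columns were matched to samples by their labels. From the counts, edgeR 4.0.16 in R 4.3.3 kept the 11669 genes that pass its default expression filter and left 11535 untested, scaled them by TMM and fitted a quasi-likelihood model with 7 groups and 14 residual degrees of freedom. All 12 comparisons come from that fit, with Benjamini-Hochberg adjustment over all tested genes in each and a threshold of 0.05. The fitting steps were tested on simulated data. Alternatives were DESeq2 size factors, upper quartile scaling, no expression filter, DESeq2 1.42.0's Wald test, limma-voom (limma 3.58.1), only the groups compared, a replicate block and leaving out each library. They were run for the 148 genes, not for channel genes outside them. Coordinates come from GENCODE vM21 (GRCm38, the assembly of mm10), in which all 148 symbols matched, with Scn2a1 as Scn2a and Clcn4-2 as Clcn4. Promoters come from RefSeq's table for GRCm38.p6.

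The members and all gene and marker lists were chosen with earlier results of these data known. Values in every library are given for members called against untreated, up to 6 per family by smallest adjusted p, and members called in the interaction, each with a mean of at least 10 CPM in some group, and for Piezo1, Piezo2, Trpv4, Trpc6, Trpm7, Kcnn4, Kcnma1, Kcnj8 and Ano1 whatever their values. Other called members have a fold change and p only. The results of some genes are not reported here, in text or figures, though all tested genes entered the fits and the counts of called genes. Kcnj2 was described more fully after its values were seen, as were Abcc9, Gria1, Stim1 and P2rx4 among other channel genes. Precision is limited by depth: counts of 3 or fewer in a library are at or under the floor given with the totals, and p-values and floors cover only these 3 libraries per group.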

Additional observations from a re-analysis of the deposited data

Results flagged for a closer look

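The change from day 14 to day 63 differed between the 2 models for 16 channel genes, each by edgeR's interaction test, which gives the SiO2 change minus the BLM change on the log2 scale. Of all tested genes, 18.5% passed this test. Among pore genes the interaction was -3.00 ± 0.28 for Scn3a, -2.93 ± 0.29 for Scn2a1, -1.07 ± 0.20 for Scn7a, -1.11 ± 0.18 for Cacna1d and -2.79 ± 0.43 for Kcna2 (adjusted p = 2.3e-09, 1.13e-08, 0.000162, 3.54e-05 and 1.39e-05). It was -0.88 ± 0.14 for the auxiliary subunit Cacna2d1 (adjusted p = 2.77e-05). Values above 0 were found for Piezo2 with 2.04 ± 0.30, Kcnn4 with 4.70 ± 0.65 and Kcnj2 with 3.90 ± 1.10 (adjusted p = 8.7e-06, 2.87e-06 and 0.0117). The Kcnn4 value was 5.67 without BLM day 63 replicate 1. The Kcnj2 value rests on 20 and 11 counts in SiO2 and 1 and 10 in BLM at day 63 and 14, was 5.67 without BLM day 63 replicate 3, and its call was lost without BLM day 14 replicate 3 (adjusted p = 0.074).

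Genes with few counts gave -3.66 ± 0.78 for Kcnj5 and -2.92 ± 0.75 for Kcnk2 (adjusted p = 0.000833 and 0.00557). Kcnj5 was -4.42 without BLM day 14 replicate 2 and -2.94 without SiO2 day 14 replicate 1, and Kcnk2 was -2.29 without BLM day 14 replicate 3. Kcnd3 gave -2.36 ± 0.70 (adjusted p = 0.0164). The Kcnd3 interaction call was lost with limma-voom, and without BLM day 14 replicate 3 and BLM day 63 replicate 1 (adjusted p = 0.0554, 0.0541 and 0.105). Clcn3 gave -0.94 ± 0.29 (adjusted p = 0.0192). The Clcn3 interaction call was lost without BLM day 14 replicate 1, SiO2 day 14 replicate 1 and SiO2 day 63 replicate 1 (adjusted p = 0.0517, 0.0658 and 0.0567). Kcns3 gave -0.83 ± 0.27 (adjusted p = 0.0312). The Kcns3 interaction call was lost with no filter on low counts and DESeq2's Wald test, and without BLM day 14 replicates 1 and 3, SiO2 day 14 replicates 1 and 2, BLM day 63 replicate 3 and SiO2 day 63 replicate 1 (adjusted p = 0.0547, 0.053, 0.0799, 0.0519, 0.0845, 0.051, 0.101 and 0.069). No cause of these differences was tested.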

How the results depend on the processing

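Each of the 12 comparisons was repeated with 7 other settings and without each library it used. Of 205 calls over 40 channel genes, 134 held in every repeat, 135 in every fit that left out a library and 170 in every other setting, and 0 changed direction. DESeq2 size factors lost 2 calls, upper quartile scaling 7, no filter on low counts 18, DESeq2's Wald test 18, limma-voom 9, only the groups compared 12 and the replicate block 5. The number of genes called in SiO2 day 63 against day 14 was 3, and 5 with no filter on low counts. Leaving out 1 library gave 24 to 30 calls at SiO2 day 7 against untreated, 11 to 15 at day 14 and 16 to 21 at day 63, and 16 to 20, 22 to 23 and 9 to 14 at BLM day 7, 14 and 63. It gave 8 to 11, 9 to 13 and 10 to 14 for SiO2 against BLM at day 7, 14 and 63, where 9 was reached without BLM day 14 replicate 1 or SiO2 day 14 replicate 3 and 10 without BLM day 63 replicate 2. It gave 1 to 4 for SiO2 day 63 against day 14 (1 without SiO2 day 14 replicate 3), 17 to 20 for BLM and 13 to 17 for the interaction. In these fits the group with 2 libraries shared its spread with the other groups. With upper quartile scaling, 44.8% of all called genes at SiO2 day 14 were higher, against 56.4% with TMM, and no scaling moved the median of all genes by more than 0.1. With the replicate number as a block, 31, 14 and 20 channel genes were called at SiO2 day 7, 14 and 63 and 22, 25 and 12 at BLM day 7, 14 and 63. Libraries that share a replicate number did not deviate together over all tested genes (correlations of -0.12 to 0.0616 over 63 pairs, 0 of them above 0.1). This check showed no pairing by number, but it cannot exclude a weak one or one confined to few genes. At this depth 98 of the 148 genes could not be tested.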
